A study of Mus musculus with 6 samples.

Results

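Leukaemia inhibitory factor (Lif) and 8 related genes of the gp130 cytokine family were read in sorted leukaemic blasts of the mouse: the ligands Lif, Osm, Clcf1 and Il6, and the receptor chains Il6st, Il6ra, Lifr, Il11ra1 and Osmr. These 9 were taken by gene ID from the 24454 genes listed. They were chosen by family membership after the difference in Lif normalized counts between the groups of these libraries was known, so differences and calls between the groups are given for them as a description only, and support nothing. Of the 9 members, 7 passed the filter on low values and were among the 12642 genes tested, while Il6 and Osmr did not pass it.

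The question behind the samples was what Stat3β, the short splice isoform of STAT3, does in acute myeloid leukaemia. The WT group (3 libraries) came from fetal liver cells of C57BL/6 wild-type littermates, and the Stat3β TG group (3 libraries) from fetal liver cells of C57BL/6 mice with an Mx1-Cre-inducible Stat3β transgene. Cells of both groups carried an MLL-AF9 retrovirus and grew in NSG recipients, whose strain lacks T, B and NK cells of its own but keeps marrow stroma, endothelium and myeloid cells. At 4 weeks the recipients were injected with poly(I:C), which induces Mx1-Cre, and at 6 weeks MLL-AF9-positive blasts, which the design text calls Venus-positive marrow cells, were sorted and total RNA was extracted. The Mx1 promoter answers interferon in many cell types, and poly(I:C) is itself an interferon inducer. The labels do not say that replicates came from separate donors or recipients, so a p-value here measures only the spread between these samples.

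Cytokines of this family share the signalling chain gp130, encoded by Il6st. Each ligand reaches gp130 through a partner: IL-6 through Il6ra, IL-11 through Il11ra1, LIF through Lifr, and in the mouse oncostatin M mainly through Osmr. The bound receptor activates JAK kinases, which phosphorylate STAT3, and SOCS3 feeds back on gp130. LIF was named for its action on a myeloid leukaemia line, and oncostatin M is made by activated myeloid cells and acts on marrow stroma.

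The values are normalized counts, that is reads scaled to a common library size, and 1 read was worth 0.562 to 1.41 normalized counts. The libraries held 21809788 to 51934498 reads. All 10 blast markers were present, with the leukaemia-associated factors Hoxa9 at 7147 to 9288 and Meis1 at 2586 to 4417 normalized counts. Markers of other cells were low or overlapped between groups with the exception of neutrophil genes, whose sum over 8 markers ran from 91692 to 349837 in WT and from 354660 to 496998 in Stat3β TG (p = 0.1 by an exact permutation test, two-sided, which cannot go lower with 3 against 3; adjusted p = 0.786 over 11 lists). On the first principal component WT 1, at -38.3, was close to Stat3β TG, at -31.4 to -16.3, and far from WT 2 and WT 3, at 64.4 and 49.7. Xist was at 42699 and 45196 in WT 1 and WT 3 and at 19.1 to 835 in the other 4 libraries, and 4 Y-linked genes summed to 58.8 and 71.8 against 8781 to 11012. The group contrast therefore runs partly along this split. In bulk RNA, fewer cells of a type and less RNA per cell cannot be told apart.

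Scaled by transcript length, blasts of both groups held much Osm, intermediate Il6ra and Il11ra1, less Il6st, Lifr and Clcf1, and almost no Il6 or Osmr. Lif was the member that stood apart between groups, intermediate in WT and low in Stat3β TG. On a scale of normalized counts per kilobase of transcript, which allows levels of different genes to be compared, Osm averaged 2610 ± 1726 (SD, n = 6 libraries), above 93.3% of the tested genes. It ranked first among the members in all 6 libraries. Il6ra averaged 428 ± 85.5 per kilobase (55.4% of tested genes were lower) and Il11ra1 averaged 296 ± 75.3 (46.2%). Lif averaged 168 ± 179.8, Il6st 154 ± 75.7 and Lifr 69.6 ± 39.9 per kilobase, above 34.4%, 33.1% and 22.6% of tested genes. Clcf1 averaged 57.4 ± 24.5, Il6 3.09 ± 2.53 and Osmr 0.325 ± 0.688 per kilobase. In this order the ranges over libraries of neighbouring members overlapped, except between Osm and Il6ra and between Clcf1 and Il6. By coding length in place of transcript length the members kept Osm and Il6ra at the top, and Lif moved from place 4 to place 3. Il6st moved from place 5 to place 4 and Il11ra1 from place 3 to place 5, so the order of Il11ra1 and Il6st depends on the length used.

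**Figure D1:**
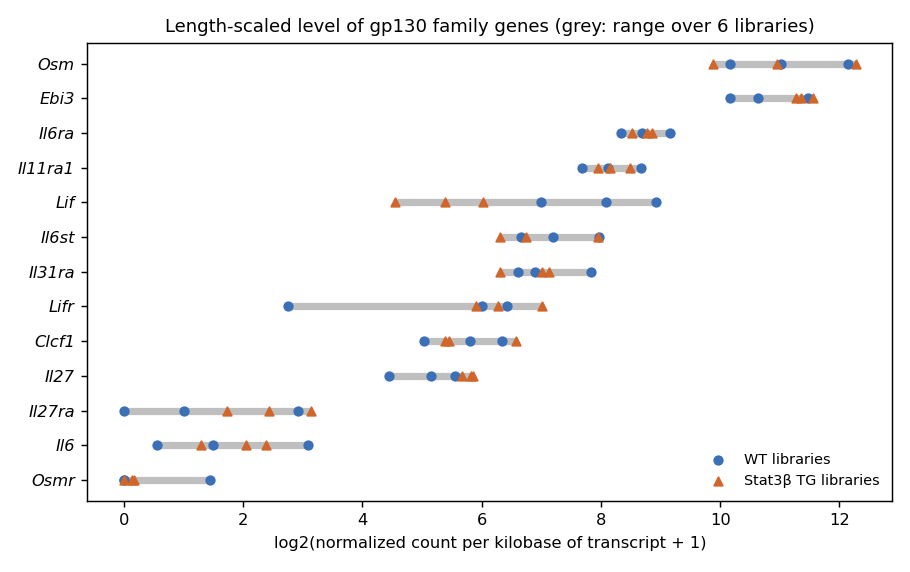
Level of gp130 family genes in each library as log2(normalized counts per kilobase of transcript + 1), WT as circles and Stat3β TG as triangles, with a grey bar over the range of the 6 libraries; the family genes Ebi3, Il27, Il27ra and Il31ra, which are not among the 9 members, are included. Osm and Ebi3 lie highest, Il6 and Osmr lie near 0, and Lif is the member whose circles all lie above its triangles.

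Lif (Entrez 16878, chromosome 11, 4257568 to 4272514, plus strand, GRCm38) encodes the cytokine LIF. It was at 1088, 1957 and 508 normalized counts in WT 1 to 3, from 1000, 1446 and 361 reads. In Stat3β TG 1 to 3 it was at 163, 259 and 90.5, from 244, 210 and 161 reads. The lowest WT library was above the highest Stat3β TG library, so the groups did not overlap, and WT 2 was highest. Each value rested on at least 161 reads, so counting error was small beside the spread between libraries. The WT mean was 1185 ± 730 and the Stat3β TG mean 171 ± 84.3 normalized counts (SD, n = 3 each). On the log2(normalized count + 1) scale the difference of Stat3β TG minus WT was -2.71 with a standard error of 0.55, a 6.53-fold higher level in WT.

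Per kilobase, the WT mean of Lif was 294 ± 181 and the Stat3β TG mean 42.4 ± 20.9 (SD, n = 3 each). Among the 9 members it took place 4, 3 and 5 in WT 1 to 3, and place 7, 6 and 7 in Stat3β TG 1 to 3.

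The groups did not overlap in 1 of the 7 tested members, Lif. Over all genes tested they did not overlap in 10.8%, with Stat3β TG lower in 4.92% and higher in 5.87%; nothing is read from this for the members, because the contrast helped to choose them. The limma test passed 0 of the 7 members and 0 of the 12642 genes (0.0%) at an adjusted p of 0.05. At an unadjusted p of 0.05 it passed 771 genes, 6.1% (3.56% higher and 2.54% lower in Stat3β TG). On the recovered reads edgeR also passed 0 genes (0.0%), with 777 or 6.15% at an unadjusted p of 0.05. DESeq2 passed 17 genes, 0.134%, and 970 or 7.67% at an unadjusted p of 0.05. Without WT 1, the library near Stat3β TG on the first principal component, limma passed 346 genes, 2.74%, and 0 of the members. The 1 member that DESeq2 passed was Lif, which restates the difference known when the members were chosen.

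The Lif groups did not overlap, so leaving out any 1 library could not reverse the difference in Lif. With each library left out in turn, the difference ran from -3.21 without WT 3 to -2.24 without WT 2. It was -2.79 with WT 1 as the only WT library, and -3.64 when the libraries with Y-linked reads (WT 2 against Stat3β TG 1 to 3) were set against each other. That last value rests on WT 2 alone in the WT arm, the library highest in Lif, and was computed after the data were seen; 5.85% of all genes passed limma in that fit. The 2 WT libraries with high Xist, WT 1 and WT 3, and the one with Y-linked reads all lay above the Stat3β TG range. All Stat3β TG libraries had Y-linked reads, and the part of this split in the Lif difference was not tested. The neutrophil marker sum also did not overlap between groups, and its part in the Lif difference was not tested. The neutrophil sums were 349837, 91692 and 280792 normalized counts in WT 1 to 3. In Stat3β TG 1 to 3 they were 496998, 365019 and 354660.

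**Figure D2:**
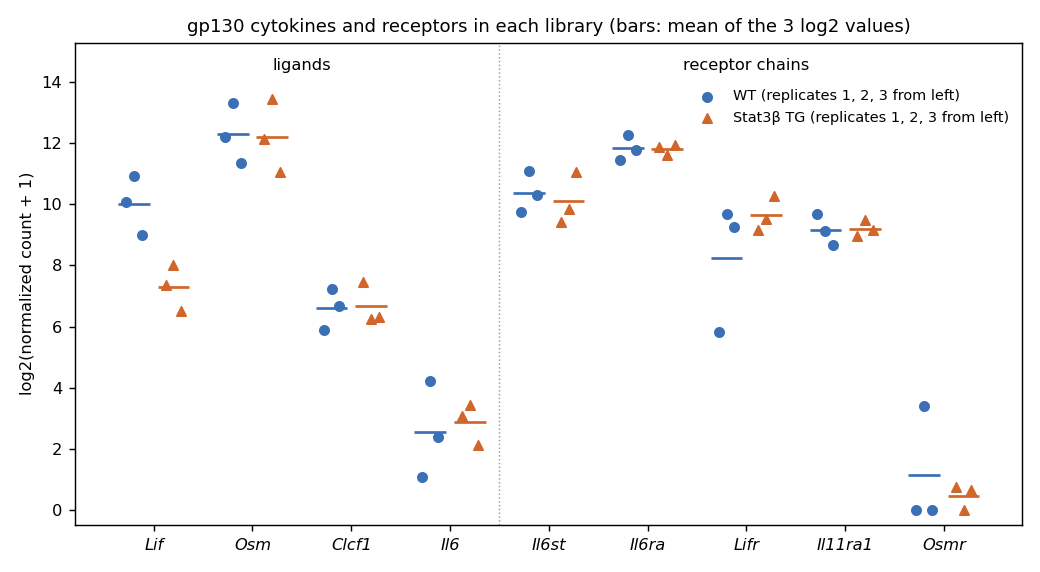
The 9 members in each of the 6 libraries as log2(normalized count + 1), WT as circles and Stat3β TG as triangles in replicate order from left, with a bar at the mean of the 3 log2 values. Lif separates by group, Lifr has 1 low WT library, and the points of Osm, Clcf1, Il6st, Il6ra and Il11ra1 intermingle.

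The sequence just upstream of Lif is shown because its level is where the groups differ. RefSeq promoter windows on GRCm38.p6 (250 bases before to 50 bases after a transcription start) were available for 7 of the 9 members. In the Lif window the letters TGANTCA, the AP-1 element bound by FOS and JUN proteins, matched once, starting 228 bases before the start. The 250 bases upstream of the start, chr11:4257318-4257567 on the plus strand, are given with that match in capitals.
Lif: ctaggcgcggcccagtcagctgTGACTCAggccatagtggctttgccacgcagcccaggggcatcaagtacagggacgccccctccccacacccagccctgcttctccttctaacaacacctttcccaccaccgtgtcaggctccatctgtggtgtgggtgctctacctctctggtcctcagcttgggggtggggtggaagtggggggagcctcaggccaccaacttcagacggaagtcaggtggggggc

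Read on both strands, TGANTCA was found in windows of 3 members (Lif, Il6 and Osmr) and in 7.81% of all 32851 promoter windows. The letters TTCNNNGAA, the element bound by STAT dimers, were in windows of 0 of these 7 members and in 8.3% of all windows. The EGR letters GCGNGGGCG were in a window of 1 member, Lifr, and in 5.55% of all windows. A match describes letters only, and the absence of one says nothing of a factor's binding.

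The ligand transcripts also shared a feature of their 3′ untranslated regions, counted on the longest protein-coding GENCODE transcript. The letters TATTTAT, the core of AU-rich elements through which decay factors such as tristetraprolin (Zfp36) bind cytokine mRNAs, occurred 5 times in Lif, 4 in Clcf1, 3 in Osm and 1 in Il6, on the transcript strand. As many as 5 occurred in 0.57% of 11934 tested genes, at least 4 in 1.32%, at least 3 in 3.7% and at least 1 in 28.9%. None of the 5 receptor chains had a match. In Lif and Osm a pair of matches lay within 30 bases, and these stretches are given with the matches in capitals.
Lif: gtcTATTTATtactatgtccTATTTATatt
Osm: ttttaTATTTATaaggccTATTTATaatgt

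Osm (Entrez 18413, chromosome 11, 4236785 to 4241026, plus strand) encodes oncostatin M and ends 16541 bases before the start of Lif, with no other listed gene between them. It was at 4738, 10341 and 2605 normalized counts in WT 1 to 3 and at 4495, 11267 and 2138 in Stat3β TG 1 to 3. WT 2 and Stat3β TG 2 were the high libraries, WT 3 and Stat3β TG 3 the low ones, and the groups overlapped throughout. The log2 difference of Stat3β TG minus WT was -0.08 with a standard error of 0.66, so the spread between libraries was far larger than the difference between groups.

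Set against its neighbour within the same library, Lif was low for its Osm level in every Stat3β TG library. The Osm to Lif ratio of normalized counts was 4.35, 5.28 and 5.13 in WT 1 to 3, and 27.5, 43.6 and 23.6 in Stat3β TG 1 to 3. The means were 4.92 ± 0.498 and 31.6 ± 10.6 (SD, n = 3 each), and the groups did not overlap. This ratio was chosen after the values were seen and holds Lif in it, so it is a description only.

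Clcf1 (Entrez 56708, chromosome 19, 4214238 to 4223505, plus strand) encodes a cytokine that signals through the CNTF receptor with gp130 and Lifr. It was at 58.8, 148 and 101 normalized counts in WT 1 to 3 and at 174, 75.1 and 79.2 in Stat3β TG 1 to 3, from 54 to 260 reads. The groups overlapped, with Stat3β TG 1 highest and WT 1 lowest, and the log2 difference was 0.08 with a standard error of 0.49. In the GENCODE annotation it overlaps other genes, and the handling of strand is not known, so part of its reads may belong to them.

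Il6 (Entrez 16193, chromosome 5, 30013114 to 30019975, plus strand), the founding cytokine of the family, was at or near the floor. It had 1, 13 and 3 reads in WT 1 to 3 and 11, 8 and 6 in Stat3β TG 1 to 3, that is 1.09, 17.6 and 4.22, and 7.36, 9.85 and 3.37 normalized counts. The gene was not tested, and its groups overlapped.

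Among the receptor chains, Il6st (Entrez 16195, chromosome 13, 112464070 to 112506860, plus strand), the gp130 chain itself, was present in every library. It was at 867, 2171 and 1271 normalized counts in WT 1 to 3 and at 679, 923 and 2132 in Stat3β TG 1 to 3. WT 2 and Stat3β TG 3 were the high libraries, the groups overlapped, and the log2 difference was -0.28 with a standard error of 0.47.

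Il6ra (Entrez 16194, chromosome 3, 89869324 to 89913196, minus strand), the ligand-binding chain for IL-6, varied least of the 7 tested members. It was at 2794, 4926 and 3549 in WT 1 to 3 and at 3771, 3151 and 3975 normalized counts in Stat3β TG 1 to 3, a range of 1.76-fold from lowest to highest library. The groups overlapped and the log2 difference was -0.02 with a standard error of 0.22. Per kilobase, the Il6ra level was 3.24, 2.28 and 2.81 times that of Il6st in WT 1 to 3, and 5.58, 3.43 and 1.87 times in Stat3β TG 1 to 3. The ligand-binding chain thus exceeded gp130 in all 6 libraries at the level of RNA. Il6ra overlaps the antisense gene Gm42809, whose reads cannot be told apart from its own where the handling of strand is unknown.

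Lifr (Entrez 16880, chromosome 15, 7090610 to 7197489, plus strand), which pairs with gp130 to bind LIF, differed mainly through 1 library. It was at 55.5, 819 and 612 normalized counts in WT 1 to 3 and at 570, 735 and 1239 in Stat3β TG 1 to 3. WT 1, with 51 reads, was more than 10-fold below every other library, and the other WT values lay inside the Stat3β TG range. The log2 difference of 1.40 (standard error 0.93) became 0.18 without WT 1 and -0.03 between the libraries with Y-linked reads. Per kilobase, Lifr was at 0.0575, 0.339 and 0.433 times Il6st in WT 1 to 3 and at 0.755, 0.715 and 0.522 times in Stat3β TG 1 to 3. Of the 6 ratios computed within libraries, this one and that of Osm to Lif did not overlap between groups. The ratio was not planned and was lowest by far in WT 1, the library low in Lifr, so it is a description only. Il6st exceeded Lifr in all 6 libraries at the level of RNA.

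Il11ra1 (Entrez 16157, chromosome 4, 41760443 to 41769473, plus strand), the chain that binds IL-11, was at 822, 556 and 409 normalized counts in WT 1 to 3 and at 495, 723 and 567 in Stat3β TG 1 to 3. The groups overlapped and the log2 difference was 0.04 with a standard error of 0.29. The near-identical copy Il11ra2 was listed at 0 in all 6 libraries, so how reads were shared between the copies is uncertain, and its end overlaps Ccl27a. Osmr (Entrez 18414, chromosome 15, 6813568 to 6874968, minus strand), the oncostatin M chain, had 7 reads in WT 2, 1 read each in Stat3β TG 1 and Stat3β TG 3, and 0 in the other 3 libraries. With 0 reads a level of up to 3 reads is still allowed by counting error, which is 1.69 to 4.22 normalized counts over the 6 libraries. The blasts thus held high Osm and close to no transcript of its main mouse receptor chain.

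Of the 12 other family genes of the list, 4 were tested and limma passed 0 of them, with 0 at an unadjusted p of 0.05 by limma, edgeR or DESeq2. Ebi3, a subunit of the cytokines IL-27 and IL-35, was the most abundant of them per kilobase, at 3268, 1327 and 1836 normalized counts in WT 1 to 3 and at 3476, 3034 and 2861 in Stat3β TG 1 to 3. Its groups overlapped through WT 1, with a log2 difference of 0.64 and a standard error of 0.31 (limma adjusted p = 0.668). Without WT 1 it passed the limma threshold (adjusted p = 0.0476), beside 2.74% of all genes. With WT 1 as the only WT library its log2 difference was -0.0701. Its partner Il27 was at 46.8, 35.2 and 21.1 in WT 1 to 3 and at 58.2, 56.6 and 51.1 in Stat3β TG 1 to 3, without overlap, with a log2 difference of 0.74 and a standard error of 0.44. Both genes overlap others in the GENCODE annotation, Ebi3 the antisense gene Gm16712 and Il27 the gene Apobr, so their values are uncertain to that extent. Il27ra was at 0 to 17.4 in WT and 6.16 to 20.7 in Stat3β TG, and Il31ra, which lies beside Il6st, at 355 to 833 and 287 to 510 normalized counts. Among the 8 untested genes, Cntf reached 20.3, Il11 6.16 and Ctf1 3.27 normalized counts at most, Cntfr had 1 read in all, and Il11ra2, Ctf2 and Il31 were listed at 0 in all 6 libraries. The median log2 difference of the 4 tested genes was 0.69, beside 0.01 over all genes tested.

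The machinery that carries the gp130 signal was present throughout. All 24 listed signal transduction genes were tested; limma passed 0 at the adjusted threshold, and 3 (2 higher, 1 lower) had an unadjusted p under 0.05, with 3 each by edgeR and DESeq2 and 0 adjusted calls by both. Over all genes the shares at that unadjusted p were 6.1% by limma, 6.15% by edgeR and 7.67% by DESeq2. The log2 difference was above 0 in 13 of the 24 and below it in 11, and its median was 0.03. Jak1, the kinase most used by gp130, was at 6630 to 9410 normalized counts over all 6 libraries, and Stat3 at 8058, 16112 and 10879 in WT 1 to 3 and 11129, 9846 and 8034 in Stat3β TG 1 to 3. The Stat3 value sums both splice forms and does not measure Stat3β. Ptpn6, which encodes the phosphatase SHP-1, was at 13875 ± 2665 in WT and 19837 ± 2768 in Stat3β TG (log2 difference 0.52, limma adjusted p = 0.668), without overlap. Socs1, a JAK inhibitor, was at 140, 330 and 722 in WT 1 to 3 and at 102, 172 and 88.2 in Stat3β TG 1 to 3 (-1.47, limma adjusted p = 0.668), where WT 1 lay inside the Stat3β TG range. Without WT 1 limma passed 3 of the 24 genes, 2 higher and 1 lower, and 2.74% of all genes (228 higher and 118 lower).

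Genes known to be induced through gp130 and STAT3 lay on both sides of 0. Of 26 listed, 23 were tested and limma passed 0; 4 had an unadjusted p under 0.05 (1 higher, 3 lower), against 6 by edgeR and 5 by DESeq2, with 0 adjusted calls by both, where 6.1%, 6.15% and 7.67% of all genes had one. Differences above 0 numbered 13 and those below it 10; their median was 0.13 on the log2 scale, and the share of higher genes over all genes tested was 51.4%. Egr1, an immediate-early transcription factor, averaged 22821 ± 6842 in WT against 8095 ± 5671 normalized counts in Stat3β TG (log2 difference -1.82, limma adjusted p = 0.668), without overlap. Bcl3, a nuclear IκB protein, was at 635, 2904 and 1030 in WT 1 to 3 and at 547, 541 and 585 in Stat3β TG 1 to 3 (-1.15, limma adjusted p = 0.668), also without overlap. Il4ra was at 4350 ± 1504 and 2678 ± 343 (-0.64, limma adjusted p = 0.668), and Fgl2, a fibrinogen-like protein of myeloid cells, at 370 ± 190 and 745 ± 193 (1.09, limma adjusted p = 0.668), both with overlap. Socs3, the feedback inhibitor that binds gp130, was picked outside the naming rule. It was at 96.9, 3969 and 2175 in WT 1 to 3 and at 1312, 3741 and 780 in Stat3β TG 1 to 3, so WT 1 was the lowest library by far, as for Lifr. Without WT 1 limma passed 3 of the 23 genes, 1 higher and 2 lower, Fgl2 and Il4ra among them, beside 2.74% of all genes.

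**Figure D3:**
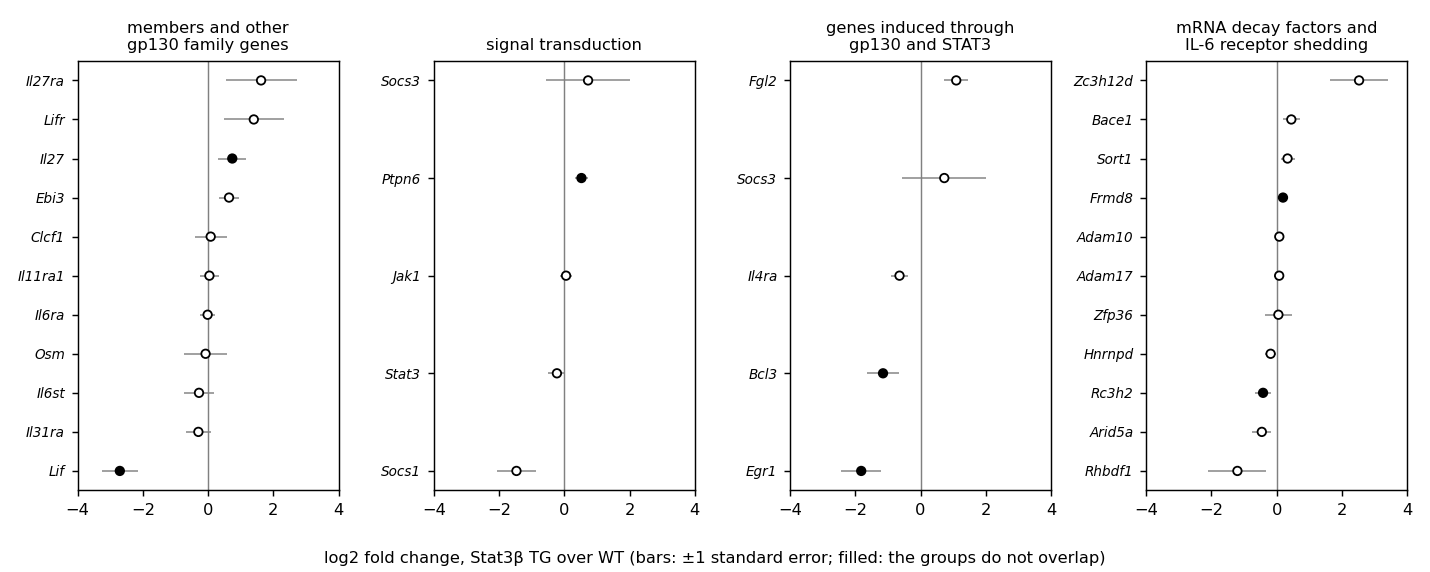
Log2 difference of Stat3β TG minus WT for the tested members and those tested list genes that the text names, as points with bars of 1 standard error; filled points mark genes whose groups do not overlap, and Socs3 stands in both middle panels because it belongs to both lists. Lif lies farthest left at -2.71, and points fall on either side of 0 in each panel.

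Membrane IL-6 receptor can be cut from the cell by ADAM proteases, and the 9 listed shedding and trafficking genes were all tested. Limma passed 0 of them, with 0 at an unadjusted p under 0.05 by limma, edgeR or DESeq2, and the median log2 difference was 0.08. The proteases Adam10 and Adam17 were at 7272 to 8672 and 2790 to 3718 normalized counts over all 6 libraries, with overlapping groups. Frmd8, which stabilises the complex of ADAM17 with its iRhom partner, was at 3155 ± 219 in WT and 3599 ± 139 in Stat3β TG (log2 difference 0.19, limma adjusted p = 0.675), without overlap. Bace1, Sort1 and Rhbdf1 overlapped between groups.

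Of the 11 listed factors that govern decay or stability of cytokine mRNAs, limma passed 0, and 1 had an unadjusted p under 0.05 (1 by DESeq2, 0 by edgeR, with 0 adjusted calls by both), beside the same shares of all genes. Differences above 0 numbered 4 and those below it 7; their median was -0.14 on the log2 scale. Zfp36, which encodes tristetraprolin, was abundant at 23710 to 71239 normalized counts and overlapped between groups. Zc3h12d, a relative of the RNase regnase-1, was at 118, 14.9 and 8.44 in WT 1 to 3 and at 161, 102 and 202 in Stat3β TG 1 to 3 (log2 difference 2.52, limma adjusted p = 0.668), with WT 1 inside the Stat3β TG range. Rc3h2, which encodes roquin-2, was at 2208 ± 793 and 1589 ± 102 (-0.42, limma adjusted p = 0.668), without overlap. Arid5a and Hnrnpd overlapped between groups. Without WT 1 limma passed 1 of the 11 factors, Zc3h12d, beside 2.74% of all genes.

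The genes whose pattern over the 6 libraries was most like that of Lif included a pair of immediate-early response genes. Likeness was the root mean square difference of log2 values centred on each gene's mean, over 10971 tested genes with a mean of at least 50 normalized counts. The nearest was Ptgs2, which encodes the prostaglandin synthase COX-2, at a difference of 0.66, followed by Rhobtb1 (0.67), Egr1 (0.70), the zinc finger gene Zfp820 (0.73) and the microRNA gene Mir6935 (0.79). Ptgs2 was at 481, 874 and 167 normalized counts in WT 1 to 3 and at 142, 234 and 106 in Stat3β TG 1 to 3, so WT 3 overlapped the Stat3β TG range. Rhobtb1 was at 88.2, 292 and 76.0 in WT 1 to 3 and at 8.03, 39.4 and 19.1 in Stat3β TG 1 to 3, without overlap. Egr1, Zfp820 and Mir6935 did not overlap either. The genes were picked for a pattern like that of Lif, whose groups did not overlap, so their separation follows from the choice. Over all genes tested the groups did not overlap in 10.8%. Like Lif, Ptgs2 carries TATTTAT in its 3′ untranslated region, 6 times, while Egr1 has no match.

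Osm followed other genes. Its 5 nearest, given after its values were seen, were Btg2, Fosb, Klf2, Zfp36 and Klf6, at differences of 0.32 to 0.40; all 5 are known as rapidly induced genes. Each was highest in WT 2 and Stat3β TG 2 within its group, as Osm was, and all 5 overlapped between groups. The nearest to Lifr was Ms4a8a (0.30), followed by Wdr5b, Cul9, Abca6 and Gpnmb (0.57 to 0.68), which shared the low value in WT 1. The nearest to Il6st was Tmem268 (0.15), followed by Maml2, Zfp385a, Slc12a4 and Bcr (0.25 each), with WT 2 and Stat3β TG 3 high. The high and low libraries that these genes share with Osm, Lifr and Il6st follow from the choice by pattern.

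**Figure D4:**
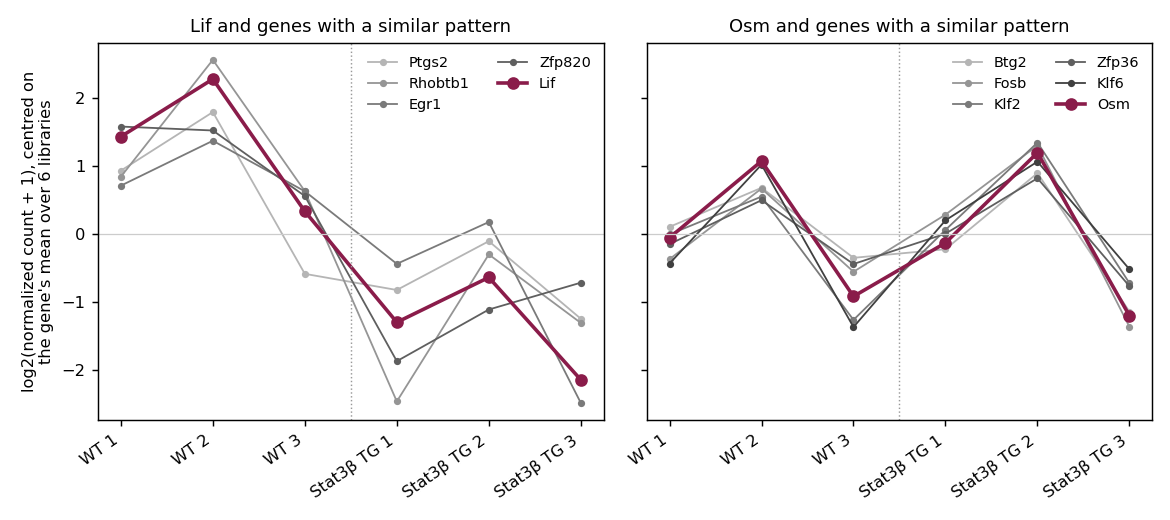
Lif (left) with 4 of the 5 genes most like it and Osm (right) with the 5 most like it, as log2(normalized count + 1) centred on each gene's mean over the 6 libraries, with a line per gene through the libraries in label order. The Lif panel steps down between WT 3 and Stat3β TG 1 for most genes, and the Osm panel peaks at WT 2 and Stat3β TG 2.

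Cells of the marrow other than blasts can make or bind these cytokines, and their markers were read beside the members. The summed level of 12 stromal markers was 4620 to 7628 in WT and 2592 to 6592 normalized counts in Stat3β TG, carried mostly by Pdgfrb and Vcam1, and 6 of the 12 averaged under 10. Pdgfrb was at 2040, 4359 and 4917 in WT 1 to 3 and at 2143, 2013 and 1888 in Stat3β TG 1 to 3, with overlap. Cxcl12 reached 124 normalized counts and Col1a1 reached 78.3, both highest in Stat3β TG 1, and Col1a2 reached 26.1, Lepr 24.4, Pdgfra 12.7, Dcn 10.8 and Lum 4.02 at most. The 8 endothelial markers summed to 183 to 297 over all 6 libraries, with 6 of 8 averaging under 10, and the T and NK markers to 9.85 to 180, with Cd3e at 0 throughout. Macrophage markers summed to 9527 to 21517 in WT and 16673 to 22688 in Stat3β TG, and eosinophil markers to 8998 to 43105 and 5584 to 10682, both with overlap. Which cells of the sort held the Lif or Osm transcripts was not tested.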

How the data were processed

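RNA sequencing measured transcripts in 6 libraries of sorted mouse blasts, 3 WT and 3 Stat3β TG, grouped by sample title. The authors worked with STAR, FastQC and DESeq2 on GRCm38 (mm10), per the submitters' processing notes. The sources used here do not give versions, the gene counter, strand handling or the annotation release. The authors deposited a normalized count signal per Entrez gene ID. All 146724 values (100%) were whole multiples, within 0.001, of 1 step per library, taken as 1 read.

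Symbols and coordinates came from RefSeq (GRCm38.p6), matching 24376 of 24454 IDs. Genes with at least 10 normalized counts in at least 3 libraries were tested (12642) as log2(normalized count + 1), with limma 3.58.1 (trend, robust) in R 4.3.3, group as the only term, two-sided, Benjamini-Hochberg adjustment and a threshold of 0.05. The added 1 shrinks differences of low genes, but a single low library can also widen them on this scale. Zc3h12d was at 2.52 by limma and 1.70 by edgeR, and Rhbdf1 at -1.21 and -1.96. Alternatives on recovered reads were DESeq2 1.42.0 and the quasi-likelihood test of edgeR 4.0.16. Scripts were tested on simulated data. Levels per kilobase used the longest protein-coding GENCODE M21 transcript (GRCm38), in place of the planned RefSeq transcript, whose length was not at hand. Motifs were found in RefSeq windows and GENCODE 3′ untranslated regions.

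The 9 members and all lists were chosen with earlier results of these data known. Genes named were the members, up to 4 tested genes per list with the smallest p, list genes not tested, and the 5 nearest in pattern to Lif, Lifr and Il6st. A few genes that this rule picks are not reported here. Genes nearest to Osm, single Jak1, Stat3, Socs3, Adam10, Adam17 and Zfp36 values, single marker genes and Xist were added after values were seen. Ratios within libraries were not planned. Marker sums of 11 cell type lists were compared by exact permutation over 20 assignments. Trac was not matched to an ID.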

Additional observations from a re-analysis of the deposited data

How the results depend on the processing

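Lif was lower in Stat3β TG under all 18 alternatives run, from -3.64 to -2.24 on the log2 scale. Since its groups did not overlap, fits that only leave out libraries or change the pseudocount could not reverse this direction. Of 431 values of 24 of the named genes under these alternatives, 406 kept their direction and 25 reversed. Some of these genes were picked for a small p in this contrast or a pattern like that of Lif. Where groups do not overlap, the same limit holds as for Lif, so the count is no measure of robustness. For genes near 0 the sign is not determined. Osm was at 0.00924 by edgeR, 0.00925 by DESeq2 and 0.00871 with WT 1 as the only WT library, and -0.70 to 0.50 with 1 library left out; Il11ra1 was at -0.0113 by edgeR, -0.0126 by DESeq2, -0.0312 with quantile normalization, -0.48 with WT 1 only, and -0.20 to 0.30 with 1 library left out. With WT 1 only, Il6ra was at 0.37, Il6st 0.34, Ebi3 -0.0701 and Il27ra -0.55. Between the libraries with Y-linked reads, Clcf1 was at -0.54, Lifr -0.0269 and Il31ra 0.21. With 1 library left out, Clcf1 ranged from -0.31 to 0.39, Il6ra from -0.21 to 0.20, Il6st from -0.76 to 0.0692 and Il31ra from -0.55 to 0.0603.

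Counts past the limma threshold, 0 in the fit to all 6 libraries, depended on single WT libraries. Over all genes the count was 346 without WT 1 and 5 without WT 2 (range 0 to 346 with 1 library left out), 740 between the libraries with Y-linked reads, 9 with WT 1 as the only WT library, and 17 by DESeq2. For the 9 members it was 1 by DESeq2 and between the libraries with Y-linked reads, in both cases Lif, whose difference was known when the members were chosen. Without WT 1 it was 1 of the other family genes, 3 signalling genes, 3 induced genes and 1 decay factor. Between the libraries with Y-linked reads it was 1 other family gene, 2 signalling genes, 2 induced genes, 1 shedding gene and 3 decay factors. The comparisons of 1 WT library were chosen after seeing the data, and the cause of these shifts was not tested.

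Log2 ratios of marker sums changed sign with 1 library left out for 5 lists: blast -0.0293 to 0.22, endothelial -0.19 to 0.0843, megakaryocyte -0.21 to 0.93, erythroid -1.30 to 0.24 and mast cell and basophil -0.17 to 0.63. By coding length the mean levels per kilobase were 1113 for Lif, 205 for Lifr, 11.5 for Il6, 2677 for Il6ra, 487 for Il6st, 7516 for Osm, 459 for Il11ra1 and 157 for Clcf1, since that length leaves out untranslated regions. The labels do not say whether replicate numbers pair the samples. Correlations of same-numbered deviations were 0.14, 0.10 and -0.11 over 12642 genes, and those of other pairs ran from -0.20 to 0.14. With so few libraries these values cannot exclude pairing. From high to low, both Lif and Osm ran WT 2, WT 1, WT 3 and Stat3β TG 2, Stat3β TG 1, Stat3β TG 3. The replicate block gave 0 genes by limma and by edgeR. Lif stayed at -2.71 in limma, since such a block cannot move the group difference in a balanced design. The limma adjusted p of Lif was 0.668 without the block and 0.288 with it, given as a description only. Depth limits Il6 and Osmr, whose counts were at most 13 reads per library.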
